A study of Mus musculus with 288 samples.

Results

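The 10 genes described here are named members of the bone morphogenetic protein (BMP) pathway, taken from the 54232 gene rows of a single-cell RNA-seq count table. They are the 4 inhibitor of DNA binding genes Id1, Id2, Id3 and Id4, the ligand gene Bmp4, the receptor gene Bmpr1a, the signal transducer genes Smad1 and Smad5, and the inhibitor genes Smad6 and Smad7. They were chosen by their measured levels in these same cells at D0, D1 and D2, so those levels are a description, and no test is made on them. All 10 had reads in cells that passed the filter, and 8 of them were over the level filter that is described below.

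Mouse embryonic stem cells were sorted one per well into 288 wells, 96 each labelled D0, D1 or D2. Every well is labelled with the line E14, which the labels give as a 129/Ola strain. D0 cells were grown in 2i + LIF medium, which is serum-free N2B27 with the GSK3 inhibitor CHIR99021, the MEK inhibitor PD0325901 and leukaemia inhibitory factor (LIF). D1 and D2 cells had been moved from that medium into medium with 15% fetal bovine serum and LIF, without CHIR99021 and PD0325901, for 24 h and 48 h. All cells therefore received LIF, and release changed the basal medium, the serum and both inhibitors together. All cells were sorted into a GpC methyltransferase (M.CviPI) reaction before their RNA was taken, since chromatin accessibility and DNA methylation were measured in the same wells. As far as the labels show, each label is 1 culture on 1 plate, so time, culture and plate cannot be told apart, and the cells of a label are not replicates of its condition.

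In the BMP pathway, secreted ligands such as BMP4 bind type I and type II receptor kinases at the cell surface, and the type I receptor phosphorylates SMAD1, SMAD5 and SMAD9. These join SMAD4, enter the nucleus and act on target genes, among which the Id genes are the best known. ID proteins have a helix-loop-helix domain but no DNA-binding region, and they hold E proteins away from DNA. Serum is a source of BMP activity, and in mouse embryonic stem cells grown with LIF, BMP and Id genes are known for holding back neural differentiation. SMAD6 and SMAD7 are made in response to the pathway and block its receptors.

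A cell passed the filter if it had over 200000 reads, over 2000 genes and under 15% mitochondrial reads, which left 90 D0, 50 D1 and 93 D2 cells, 233 in all. The passing cell with the fewest reads had 202157 and the well with the most reads under the limit had 124454, both labelled D1. Median depth per passing cell was 1610760, 7956160 and 2162090 reads in D0, D1 and D2. The embryonic stem cell markers Pou5f1, Sox2, Nanog, Zfp42, Esrrb, Dppa5a and Tdgf1 all had a mean of at least 10 CPM (reads of the gene divided by those of the cell, times 1000000) in each label. No marker of primitive endoderm, mesoderm, neural cells or fibroblasts reached that level in any label, and of 5 trophectoderm markers 2 did in each label (Krt8 and Krt18, which are keratins of other simple epithelia too). Below that level the 3 neural markers were higher in D1, with a median summed level of 13.1 CPM against 0 in D0 and D2 and a read at equal depth in 25.3% of pairs of marker and cell, against 9.26% in D0 and 2.15% in D2. Their part in the results was not tested.

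The labels stood apart in 2 ways. Hprt had a read in 96% of D1 cells but in 10% of D0 and 7.53% of D2 cells, and a Y-linked gene (Uty, Kdm5d, Eif2s3y or Ddx3y) was read in 96% of D1, 3.33% of D0 and 5.38% of D2 cells, although all wells carry 1 line name. The mean of Hprt was 207 CPM in D1, against 3.08 CPM in D0 and 2.68 CPM in D2. The paper's reference for the E14 line reports HPRT-deficient mouse embryos. Whether D1 cells are of the same line as the others was not tested, so line cannot be told apart from time in comparisons with D1. D2 cells held a median of 3944 genes when each cell was thinned to 200000 reads, against 7791.5 in D0 and 8056 in D1. The paper describes a separate cluster of D2 cells with possible stress, and D2 cells were not split by it here. The ratio of D2 to D0 uses no D1 cell, and that of D1 to D0 uses no D2 cell. The level filter described below uses all 3 labels, so the set of tested genes, with its shares and medians, rests on all of them in every comparison. The part that these differences between labels play in the levels of the BMP genes was not tested.

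The Id genes are short and lie on separate chromosomes of the GRCm38 assembly, at chr2:152736251-152737410 on the plus strand (Id1), chr12:25093799-25097140 on the minus strand (Id2), chr4:136143497-136145755 on the plus strand (Id3) and chr13:48261228-48266026 on the plus strand (Id4). No other annotated gene shares exonic sequence with Id1, Id2 or Id3. Exons of Id4 overlap A330033J07Rik and Gm49291 on the opposite strand, those of Bmp4 and Bmpr1a overlap Gm15217 and Gm17110 on the opposite strand, and those of Smad5 overlap Gm27301 on the same strand. A read in these overlaps could belong to either gene, for the opposite-strand genes if counting ignored strand, so the values of these 4 genes are less certain. Since 3 of the 4 Id genes moved together, the RefSeq windows of 250 bases before the start of Id2, Id3 and Id4 were searched for GGCGCC and for GGAGCC on either strand, 2 GC-rich hexamers of the kind that BMP SMADs bind. The window of Id1 was not analysed here. The letters around each match are shown in the direction of the gene, with the hexamer in capitals.

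Id2, chr12:25096306-25096335, upstream of the RefSeq start and intronic in a longer annotated transcript: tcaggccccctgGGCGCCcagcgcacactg
Id2, chr12:25096163-25096192, in an annotated 5′ UTR exon of that longer transcript: gtatgatggacgGGAGCCcttccaccaatg
Id3, chr4:136143623-136143652, in an annotated 5′ UTR exon: cctcgcatccgaGGCTCCgctgtcctcggc
Id4, chr13:48260956-48260985, upstream of the gene: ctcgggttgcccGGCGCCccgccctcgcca
Id4, chr13:48261086-48261115, upstream of the gene: acaaatactgctgtgccGGAGCCgagcgac

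GGCGCC was thus found before Id2 and Id4 but not Id3, and GGAGCC or its complement GGCTCC before all 3. Over 32851 windows of the same length, 9.59% held GGCGCC and 26% held GGAGCC on either strand. The windows of Id2, Id3 and Id4 were 62.8%, 62.8% and 75.6% G and C, against a median of 52.4% over all windows. The window of Id4, whose level went the other way, held the same hexamers as that of Id2. A match of letters is a description and no evidence of binding.

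Levels are CPM with the total of each cell, averaged over cells, with the SD between cells. Ratios of labels are log2 of (mean CPM + 1). A gene was tested for a change past 2-fold if its average over the 3 label means was at least 10 CPM, which 8642 genes met, and "rose" and "fell" below mean past 2-fold by this rule. In D1 over D0, 11.7% of these genes rose and 27.6% fell, with a median log2 ratio of -0.33. In D2 over D0, 13.7% rose and 26% fell, with a median of -0.14. In D2 over D1, 19.9% rose and 16.8% fell, with a median of 0.11. Of the 8 BMP genes over the filter, 3 rose, 1 fell and 4 did neither in D1 over D0. In D2 over D0, 3 rose, 2 fell and 3 did neither, and in D2 over D1, 0 rose, 1 fell and 7 did neither. The choice of the genes used these contrasts, so nothing is read from their counts against those shares.

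Id1, Id2 and Id3 were the genes that rose on release, at both times. Id1, a direct target of BMP SMADs, ranged from 0 to 51.3 CPM in D0 with a median of 0, from 0 to 1398 CPM in D1 with a median of 43.3, and from 0 to 1334 CPM in D2 with a median of 118. Its mean was 3.54 ± 9.09 CPM (SD, n = 90 cells) in D0, 177 ± 300 CPM (n = 50) in D1 and 249 ± 321 CPM (n = 93) in D2. Over D0, its log2 ratio was 5.30 in D1 and 5.78 in D2, and 99.9% of tested genes had a lower ratio in each. The highest D0 cell lay below the mean of either serum label, but the ranges overlapped, since 27 of 50 D1 and 32 of 93 D2 cells were at or below it. Over 100 CPM there were 0 of 90 D0, 19 of 50 D1 and 49 of 93 D2 cells.

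Id2 ranged from 0 to 513 CPM in D0 with a median of 0, from 0 to 1279 CPM in D1 with a median of 46.8, and from 0 to 1772 CPM in D2 with a median of 3.18. Its mean was 10.6 ± 55.5, 126 ± 216 and 159 ± 287 CPM (SD between cells), and its log2 ratio over D0 was 3.45 in D1 and 3.79 in D2. A single D0 cell, at 513 CPM, was the only one over 100 CPM, and without it the log2 ratios were 4.41 and 4.75. The mean of Id2 in D2 lay above that in D1 while its median lay below it, since in D2 the reads sat in fewer cells. The 10 highest of 93 D2 cells held 53.9% of the summed CPM of Id2, and the 5 highest of 50 D1 cells held 48.6%.

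Id3 differed from the other 2 in being read in many 2i cells. It ranged from 0 to 325 CPM in D0 with a median of 0.595, from 0 to 1429 CPM in D1 with a median of 58.9, and from 0 to 1615 CPM in D2 with a median of 55.7. Its mean was 30.1 ± 54.1, 191 ± 338 and 221 ± 383 CPM (SD between cells), and its log2 ratio over D0 was 2.63 in D1 and 2.83 in D2. Over 100 CPM there were 9 of 90 D0, 17 of 50 D1 and 39 of 93 D2 cells, so the upper part of the D0 range overlapped the serum labels. From D1 to D2 the log2 ratios of the means of Id1, Id2 and Id3 were 0.49, 0.34 and 0.21, all within 2-fold and small beside the spread between cells. With the median over cells in place of the mean they were 1.42, -3.52 and -0.08, so Id1 and Id2 passed 2-fold in opposite directions.

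Id4 went the other way. It ranged from 0 to 141 CPM in D0, from 0 to 13.4 CPM in D1 and from 0 to 0.450 CPM in D2, with a median of 0 in each. Its mean was 14.7 ± 25.5 CPM (SD, n = 90 cells) in D0, 0.590 ± 2.46 CPM (n = 50) in D1 and 0.00838 ± 0.0575 CPM (n = 93) in D2. There were 3102 reads in D0 cells, 318 in D1 cells and 3 in D2 cells, the latter in 2 of 93 cells. Summed over cells, the level in D2 was 0.000827 times that in D0, with an exact 95% interval of 0.000170 to 0.00242. That interval takes each read as independent, although reads of 1 cell and PCR copies are not, so it is likely too narrow. It and the intervals below cover counting error only. With an average of 5.10 CPM over the labels, Id4 was under the level filter and is in none of the counts of genes that fell.

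**Figure D1:**
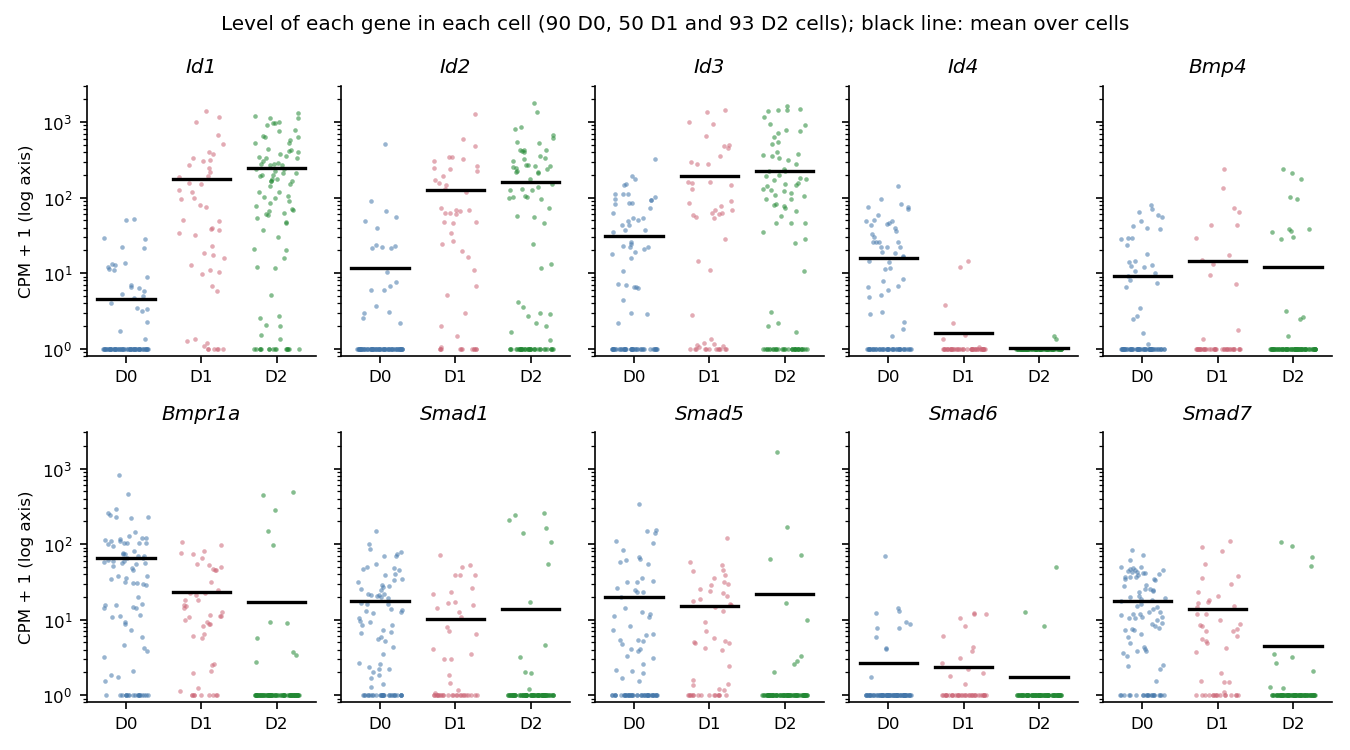
Level of each of the 10 genes in each cell, as CPM + 1 on a log axis, by label (90 D0, 50 D1 and 93 D2 cells, 1 point a cell, black line at the mean over cells). Single D1 and D2 cells reach 1398 CPM of Id1, 1772 CPM of Id2 and 1615 CPM of Id3, Id4 is near 0 in D2, and the D2 means of the receptor and Smad genes rest on a few high cells among many at 0.

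Levels per kilobase of exon, with all annotated exons of a gene merged, allow a rough comparison of genes. By this measure Id3 had the highest mean level of the 4 Id genes in D0, at 16.8 CPM per kilobase, followed by Id2 at 4.35, Id4 at 3.82 and Id1 at 3.05. In D1 the order was Id1 at 153, Id3 at 107, Id2 at 51.5 and Id4 at 0.153 CPM per kilobase. In D2 it was Id1 at 215, Id3 at 123, Id2 at 65.4 and Id4 at 0.00218. The SD between cells exceeded the mean for each of these Id values, so neighbours in each order lay closer together than the spread between cells. In D0 the 9 highest of 90 cells, up to 513 CPM, held 91.4% of the summed CPM of Id2, so its place above Id4 and Id1 rests on few cells. Among the other 6 genes the highest level per kilobase was that of Bmpr1a in D0, at 10.3 CPM per kilobase.

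The share of cells with a read was compared with every cell thinned to 200000 reads. Id1 was read in 20% of D0 cells (95% exact Clopper-Pearson interval 12.3 to 29.8), 76% of D1 cells (61.8 to 86.9) and 75.3% of D2 cells (65.2 to 83.6). Id2 was read in 22.2% (14.1 to 32.2), 72% (57.5 to 83.8) and 50.5% (39.97 to 61.1) of cells, and Id3 in 45.6% (35.02 to 56.4), 64% (49.2 to 77.1) and 58.1% (47.4 to 68.2). These intervals cover counting error over the cells of 1 culture each, not the spread between cultures. Id4 was read in 41.1% (30.8 to 51.98) of D0 and 6% (1.25 to 16.5) of D1 cells, and in 0 of 93 D2 cells (0 to 3.89).

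Detection was lower in D2 for most genes. The median share over the 8642 tested genes was 81.1%, 80% and 30.1% in D0, D1 and D2, and the share was higher in D2 than in D0 for 5.37% of them. Id1, Id2 and Id3 were among those, with 55.3, 28.3 and 12.5 percentage points more cells in D2 than in D0, where the difference of the median tested gene was -36.5 points. From D1 to D2, Id1 differed by -0.73, Id2 by -21.5 and Id3 by -5.94 percentage points, against -36.6 for the median tested gene.

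**Figure D2:**
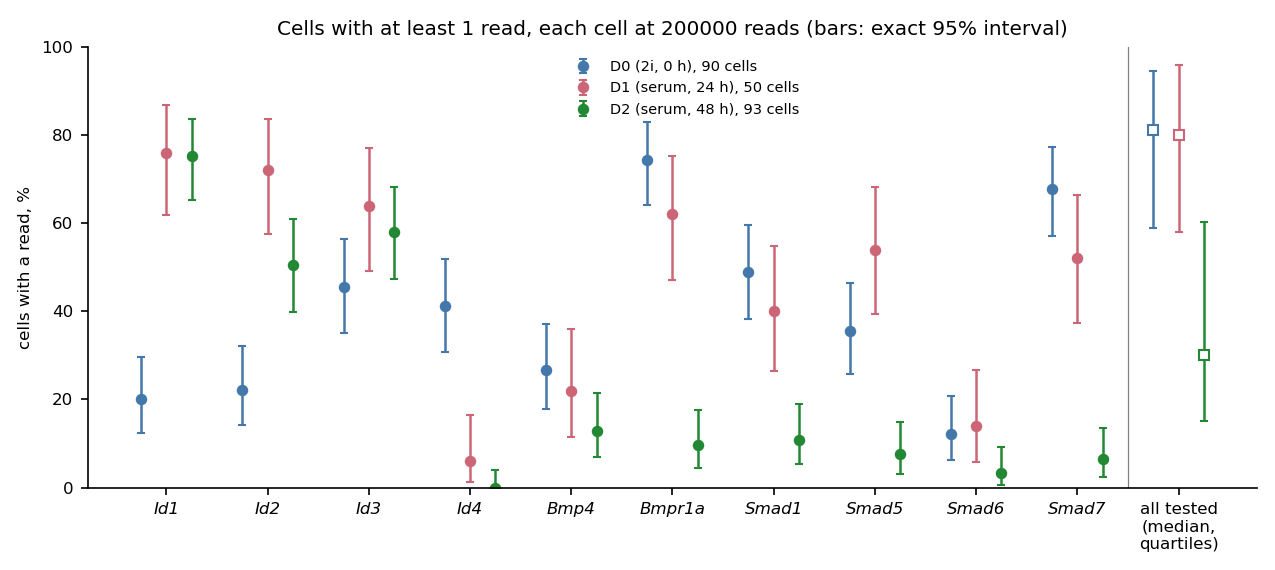
Share of cells with at least 1 read of each gene, in percent, with every cell thinned to 200000 reads (bars, exact 95% interval), beside the median and quartiles of the share over the 8642 tested genes (open squares). Id1 and Id2 lie higher in D1 and D2 than in D0, while Bmpr1a, Smad1, Smad5 and Smad7 lie lower in D2 than in D0, as the median tested gene does.

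Bmp4, the ligand gene, did not pass 2-fold at either time with all passing cells. It ranged from 0 to 79.7 CPM in D0, from 0 to 240 CPM in D1 and from 0 to 240 CPM in D2, with a median of 0 in each. Its mean was 8.09 ± 17.4, 13.6 ± 40.4 and 10.98 ± 39.7 CPM (SD between cells), and its log2 ratio over D0 was 0.68 in D1 and 0.40 in D2. Without the highest D1 cell the first of these was 0.13, and from inner wells of the plates alone they were 1.43 and -0.19. At equal depth Bmp4 was read in 26.7%, 22% and 12.9% of D0, D1 and D2 cells, so at each time it was read in a minority of cells, and the 3 ranges overlapped throughout. Of the 9 ligand genes listed, Gdf3, a TGF-beta family ligand of pluripotent cells, was the other over the filter, with means of 157, 246 and 217 CPM at the 3 times and no change past 2-fold. No read of Bmp2, Bmp5 or Gdf6 was found in the 233 cells.

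Bmpr1a, a type I receptor that phosphorylates the BMP SMADs, fell at both times. It ranged from 0 to 824 CPM in D0 with a median of 30.1, from 0 to 107 CPM in D1 with a median of 10.3, and from 0 to 483 CPM in D2 with a median of 0. Its mean was 65.1 ± 112, 21.8 ± 27.6 and 16.0 ± 75.4 CPM (SD between cells), and its log2 ratio over D0 was -1.53 in D1 and -1.96 in D2. At equal depth it was read in 74.4% (64.2 to 83.1), 62% (47.2 to 75.3) and 9.68% (4.52 to 17.6) of cells, and 8.11% of tested genes lost more in share from D0 to D2. D2 cells fell into a few with high values and many at 0, whereas most D0 and D1 cells had a read. Of 9 receptor and co-receptor genes listed, 4 were over the filter. Bmpr1a, the type II receptor gene Bmpr2 and the co-receptor gene Rgmb fell in D1 over D0, and Bmpr1a, Bmpr2 and the type II receptor gene Acvr2a fell in D2 over D0. Rgmb was barely over the level filter, at an average of 10.03 CPM, and its highest D2 cell was at 565 CPM. The mean of Bmpr2 was 9.17 CPM in D1 and 5.36 CPM in D2, with log2 ratios over D0 of -1.61 and -2.29. Without its highest D2 cell, at 396 CPM, the D2 mean was 1.12 CPM and the log2 ratio -3.87.

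Smad1 and Smad5, the transducers, did not pass 2-fold in any contrast as averaged over cells, but both did under other ways of summing. Smad1 ranged from 0 to 149 CPM in D0 with a median of 5.24, from 0 to 70.4 CPM in D1 with a median of 0.116, and from 0 to 255 CPM in D2 with a median of 0. Its mean was 16.6 ± 26.1, 9.25 ± 16.2 and 12.7 ± 47.6 CPM (SD between cells), with log2 ratios over D0 of -0.78 in D1 and -0.36 in D2. Its share of cells at equal depth was 48.9%, 40% and 10.8%, so in D2 a level close to that of the other labels came from fewer cells. From reads summed over cells its log2 ratio in D1 over D0 was -1.15. In D2 over D0 its sign was kept in 8 of 11 alternative ways of processing, and the ratio was -2.64 with the median over cells. In D2 over D1 it was past 2-fold in 3 of 12 alternatives, at most 1.19 in inner wells. Smad5 ranged from 0 to 334 CPM in D0 with a median of 0.267, from 0 to 121 CPM in D1 with a median of 3.99, and from 0 to 1635 CPM in D2 with a median of 0. Its mean was 19.1 ± 47.2, 13.96 ± 21.8 and 21.1 ± 170 CPM (SD between cells), with log2 ratios over D0 of -0.43 in D1 and 0.14 in D2. The D2 mean rested on 1 cell at 1635 CPM. Without that cell the log2 ratio was -2.14 in D2 over D0 and -1.71 in D2 over D1, both past 2-fold. With that cell, TMM factors on summed reads (a scaling in which most genes are taken as unchanged) gave 1.26 in D2 over D0 and 1.97 in D2 over D1, so the direction of Smad5 in D2 was not settled. Smad5 was read in 35.6%, 54% and 7.53% of cells at equal depth. Smad4, the partner of both, fell at both times, from a mean of 40.2 CPM in 2i to 18.6 and 5.26 CPM at 24 h and 48 h. Its log2 ratios over D0 were -1.07 and -2.72, the first close to the limit of 2-fold, and its highest D2 cell was at 184 CPM. Smad9, the third BMP SMAD, was under the filter.

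Smad7, which blocks type I receptors, fell in D2. It ranged from 0 to 83.1 CPM in D0 with a median of 9.86, from 0 to 109 CPM in D1 with a median of 4.40, and from 0 to 105 CPM in D2 with a median of 0. Its mean was 16.7 ± 18.5, 12.9 ± 23.3 and 3.47 ± 16.6 CPM (SD between cells), with log2 ratios over D0 of -0.35 in D1 and -1.99 in D2, and -1.64 in D2 over D1. Its share of cells at equal depth was 67.8% (57.1 to 77.2), 52% (37.4 to 66.3) and 6.45% (2.40 to 13.5). The D2 over D0 ratio was -1.04 from reads summed over cells and it was within 2-fold with TMM factors on those sums (-0.79), with median-of-ratios factors (another such scaling, -0.84) and with a pseudocount of 10 CPM (-0.99). The D2 over D1 ratio was within 2-fold with a pseudocount of 10 CPM, from summed reads, with TMM factors and with median-of-ratios factors, and under the last its sign turned, to 0.037. Smad6, which competes with the receptor SMADs, was low throughout, with a mean of 1.63 ± 7.64, 1.37 ± 3.10 and 0.724 ± 5.22 CPM (SD between cells), a highest cell of 68.8, 11.3 and 48.8 CPM, and a read in 12.2%, 14% and 3.23% of cells at equal depth. It was under the level filter and is in no count of calls.

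The rest of the pathway came from a list of 56 genes that includes the 10, of which 26 were over the level filter and 8 had no read in any passing cell. Among the 18 of those 26 that are not in the set of 10, 2 rose and 8 fell in D1 over D0, and 2 rose and 12 fell in D2 over D0. Over all tested genes 11.7% rose and 27.6% fell in the first of these contrasts, and 13.7% and 26% in the second. Their median log2 ratio over D0 was -0.80 in D1 and -1.65 in D2, below the medians of all tested genes.

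Both of those that rose did so at both times. Dusp9, a BMP target gene whose product is a phosphatase of ERK, had means of 4.33, 26.3 and 76 CPM in D0, D1 and D2, with log2 ratios of 2.36 and 3.85 over D0, and was read in 25.6%, 72% and 77.4% of cells at equal depth. Skil, which encodes the SMAD co-repressor SnoN, had a mean of 42.2, 135 and 154 CPM, with log2 ratios of 1.66 and 1.84. Skil was read in 61.1%, 90% and 59.1% of cells at equal depth, with medians of 14.4, 99.7 and 15.5 CPM, so its higher mean in D2 came from high cells and not from more cells with a read. Tbx3, a target gene that is also a factor of naive pluripotency, fell from a mean of 141 CPM in 2i to 13.5 and 13.7 CPM at 24 h and 48 h. Of 13 target genes listed, 5 were over the filter. These are Id1, Id2 and Id3, which were chosen by these levels, and Dusp9 and Tbx3, of which 1 rose and 1 fell at both times.

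Of 18 inhibitor genes listed, 9 were over the filter, and 2 of these fell at 24 h and 6 at 48 h, beside 27.6% and 26% of all tested genes, with Skil the only one that rose. The ubiquitin ligase gene Smurf2 had means of 19.1, 12.3 and 0.449 CPM at the 3 times, and the activin and BMP antagonist gene Fst had 20.0, 8.57 and 4.73 CPM, the last of which was 1.5 CPM without its highest cell. Of the secreted BMP antagonists, Nog and Chrd stayed under 1 CPM in each label. The 3 E protein genes Tcf3, Tcf4 and Tcf12, whose products ID proteins bind, were all over the filter, and 2 fell at 24 h and 3 at 48 h. The 2 at 24 h were Tcf3 and Tcf4, with log2 ratios of -1.18 and -1.15, close to the limit of 2-fold. Per kilobase of exon Tcf3 had the highest mean of them in each label, at 14.4, 6.23 and 3.78 CPM per kilobase in D0, D1 and D2, against 3.78, 1.69 and 1.19 for Tcf4. In CPM the order of these 2 was the reverse, with 103, 46.1 and 32.7 CPM for Tcf4 against 58.3, 25.2 and 15.3 CPM for Tcf3. The order per kilobase rests on the merged length of all annotated exons, 27382 bases for Tcf4 and 4039 for Tcf3.

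**Figure D3:**
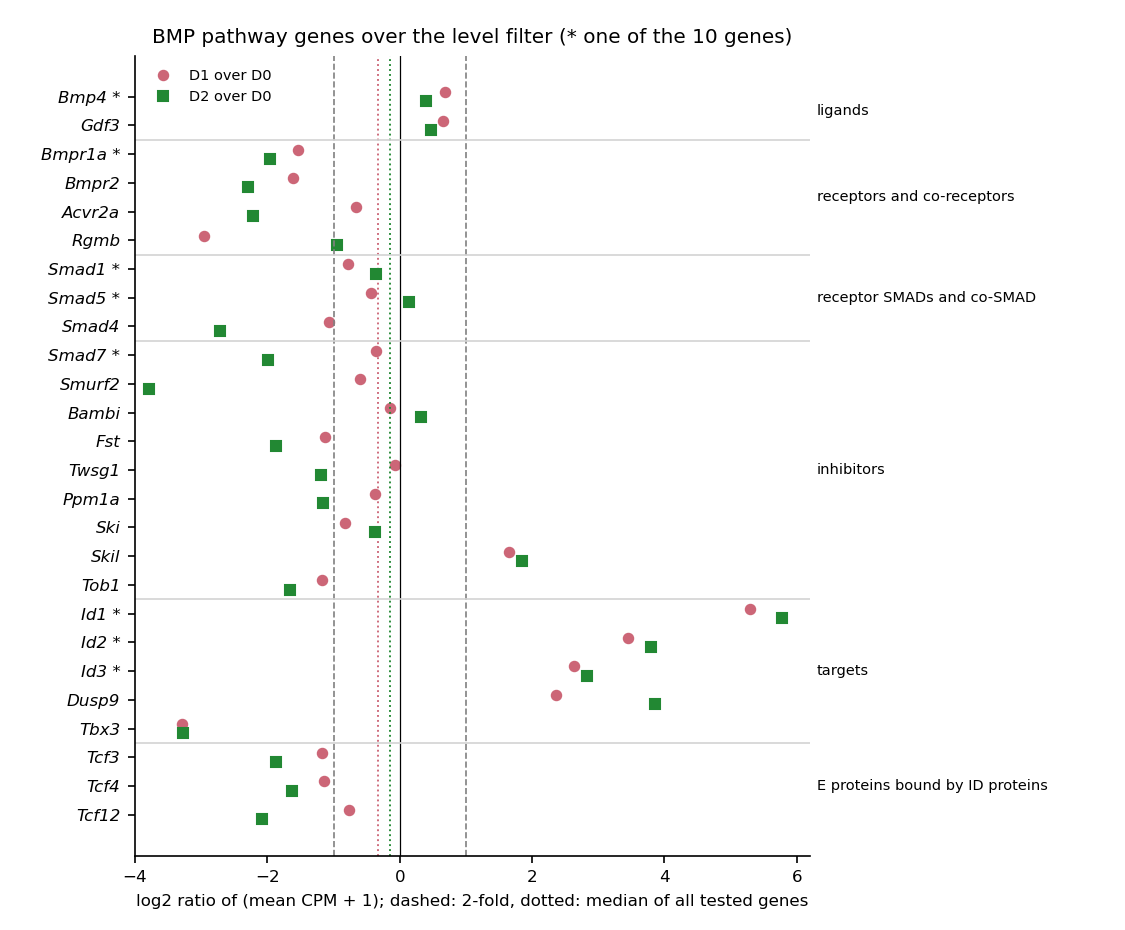
log2 ratio of (mean CPM + 1) in D1 over D0 (circles) and D2 over D0 (squares) for the 26 genes of the BMP pathway list over the level filter, by role (dashed lines, 2-fold, dotted lines, median of all tested genes). Id1, Id2, Id3, Dusp9 and Skil lie to the right of the 2-fold line at both times, and most receptor, inhibitor and E protein genes lie to the left of 0.

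Reads of Id1, Id2 and Id3 were next counted within the same cells. At equal depth, 1 of 90 D0 cells had a read of all 3, against 20 of 50 D1 cells (40%) and 37 of 93 D2 cells (39.8%). A read of none of the 3 was found in 27 D0 cells (30%), 1 D1 cell (2%) and 18 D2 cells (19.4%). These counts move with the share of cells that had a read of each gene, which was higher in serum. In D2, Id1 was read in 45 of 47 cells with an Id2 read and in 25 of 46 without one. In D1 it was read in 28 of 36 and 10 of 14 such cells, and in D0 in 5 of 20 and 13 of 70. The summed level of the 3 genes ran from 0 to 513 CPM in D0 with a median of 20.4, from 0.356 to 3682 CPM in D1 with a median of 214, and from 0 to 3783 CPM in D2 with a median of 297. Serum cells therefore covered a wide range, from cells without a read to cells with 3783 CPM.

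Across the cells of a label, levels were compared by Spearman correlation, which is given as a description, since the cells of a label share 1 culture and plate. Id1 and Id3 had a correlation of -0.03 in D0 (n = 90 cells), 0.61 in D1 (n = 50) and 0.64 in D2 (n = 93). Id1 and Id2 had 0.10, 0.44 and 0.58, and Id2 and Id3 had -0.25, 0.37 and 0.59. The 3 genes thus went together in the serum labels and not in 2i, where they were low. With counts thinned to equal depth the 3 pairs spanned 0.32 to 0.64 (D1) and 0.50 to 0.64 (D2). In D2, the correlation of Id1, Id2 and Id3 with the reads of the cell was -0.11, -0.14 and -0.06, and with its number of detected genes -0.01, -0.06 and 0.09. In D1, where depth varied most, these were -0.07, 0.13 and -0.27 with reads and 0.05, 0.23 and -0.22 with detected genes.

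**Figure D4:**
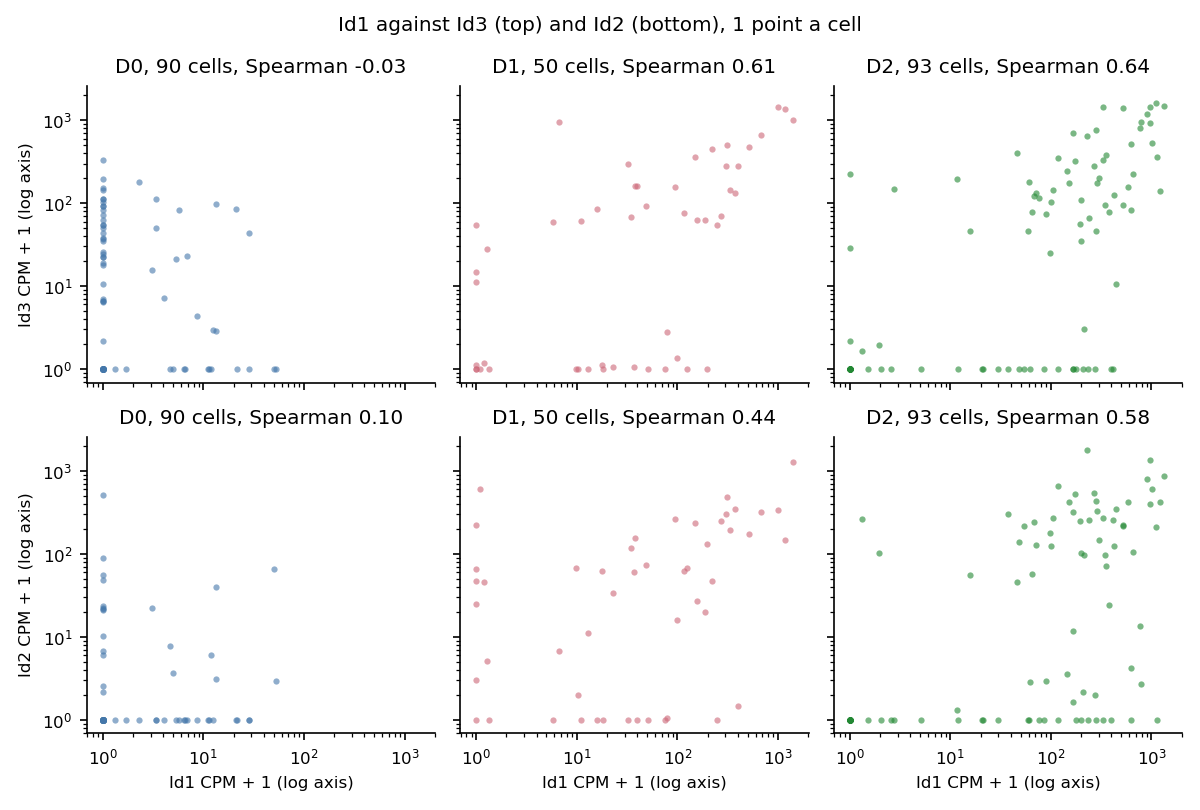
CPM + 1 of Id1 against Id3 (top) and Id2 (bottom), on log axes, in D0, D1 and D2, 1 point a cell, with the Spearman correlation in each title. In D1 and D2 the cells with the highest Id1 are mostly those with high Id3 and Id2, and in D0 they are not.

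Set against every gene read in 50% of cells or more, these correlations were the highest that Id1 had in D2. Of 3798 other genes there, Id3 ranked 1 and Id2 ranked 2 for Id1, and the next were the non-coding gene Platr10 at 0.37, the splicing factor gene Srsf7 at 0.36 and Cwf19l2 at 0.33. The 95th percentile of all these genes was 0.18. For Id3 in D2, Id1 ranked 1 and Id2 ranked 2 at 0.59, followed by the kinase gene Pim2, Lsm12 and the G protein subunit gene Gnai2 at 0.36 each. In D1, of 9810 other genes, Id3 ranked 1 for Id1 and Id1 ranked 1 for Id3, while Id2 was among the 5 highest of neither, and neither was among the 5 highest for Id2. The next for Id1 were the phosphatase gene Ptprg at 0.48, the imprinted gene Peg3 at 0.46, the methyl-CpG binding protein gene Mbd1 at 0.46 and Akap12 at 0.46. Those for Id3 were Tfdp2 at 0.49, Pitrm1 at 0.47, the kinetochore gene Spc24 at 0.46 and the imprinted gene Mest at 0.46. With 50 cells the 99th percentile for Id1 in D1 was 0.34, and apart from the Id genes these lists of 5 had no gene in common between D1 and D2.

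**Figure D5:**
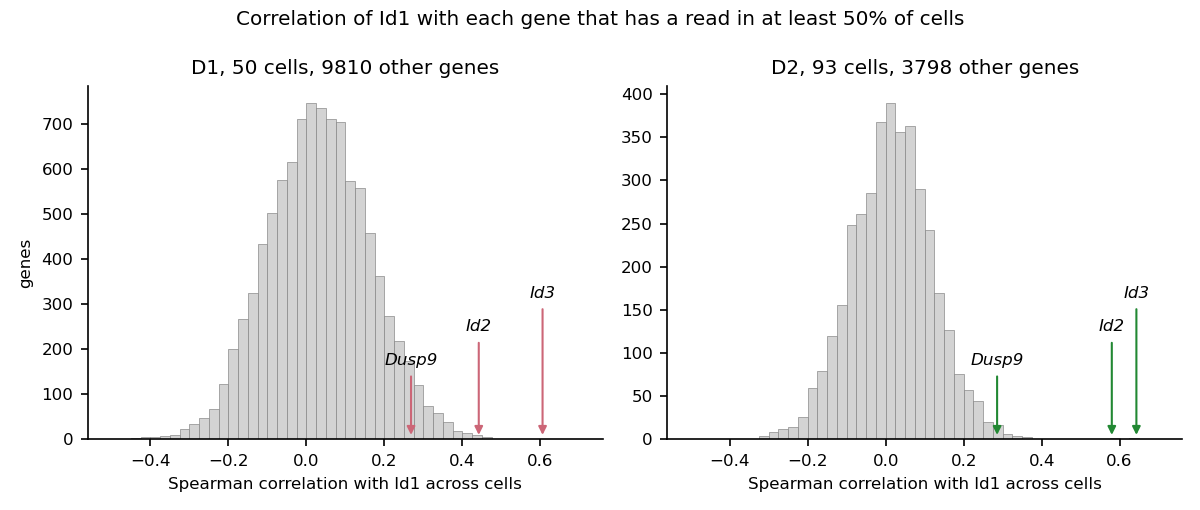
Number of genes by their Spearman correlation with Id1 across cells, for 9810 genes in D1 (left, 50 cells) and 3798 genes in D2 (right, 93 cells), with arrows at Id3, Id2 and Dusp9. Id3 lies at the upper end of both distributions, Id2 lies beside it in D2, and Dusp9 lies within the upper tail.

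Among the 10 genes, Bmp4, Bmpr1a and the Smad genes had weak correlations with the Id genes from cell to cell. Taking those of the 10 read in 20% of cells or more, the 15 pairs of Id1, Id2 or Id3 with one of them had a median of 0.03 in D0 (range -0.22 to 0.21), and the 18 such pairs in D1 had -0.01 (range -0.27 to 0.20). Bmp4 with Id1 was 0.09 in D0 and -0.06 in D1, and Bmpr1a with Id1 was 0.09 in D0 and -0.01 in D1. The highest of these pairs were Bmp4 with Id3 in D0 (0.21, with thinned counts 0.24) and Smad6 with Id2 in D1 (0.20, with thinned counts 0.24). Of the 10 genes in D2, only Id1, Id2 and Id3 met that limit, so the correlation of the Id genes with the other 7 could not be described there. Among the other pathway genes in D2, Dusp9 had the highest correlation with each of Id1 (0.29), Id2 (0.31) and Id3 (0.28), with counts thinned to equal depth 0.24, 0.25 and 0.27. These lie below those among the Id genes in D2. In D1, Dusp9 had a correlation of 0.52 with Id2, also with thinned counts, which is above that of Id2 with Id1 or Id3, while it had 0.27 with Id1 and -0.01 with Id3.

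The 2 D1 cells without an Hprt read had Id1 at 14.9 and 31.1 CPM and Id3 at 83.5 and 295 CPM, and no Id2 read. In the 7 D2 cells with an Hprt read, the median of Id1 was 278 CPM, against 117 CPM in the 86 D2 cells without one. The medians were 400 and 45.4 CPM for Id3 and 1.69 and 6.99 CPM for Id2, so the 3 genes did not share 1 direction. In D0 the median of Id3 was 48.5 CPM in 9 cells with an Hprt read and 0 in 81 without one. Id1 was thus present in D2 cells with and without an Hprt read. It was above 0 in both of those D1 cells, but both lay within the D0 range, whose highest cell was at 51.3 CPM. Their Id3 values also lay within the D0 range, whose highest cell was at 325 CPM. In D0, 27 of 90 cells had an Id1 read as well.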

How the data were processed

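RNA was measured from single cells whose genomes were also assayed by bisulfite sequencing (scNMT-seq). The authors aligned reads with HISAT2 to GRCm38, per the submitters' processing notes, and deposited raw whole-number read counts for 54232 gene rows and 288 wells, each well in 1 column. The counting tool, its strand setting and the annotation are not given in the sources used here. Although the descriptions point to a normalized table, the deposited values are whole numbers and include wells that fail the filter. PCR copies could not be removed, since no molecular identifiers are mentioned.

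From the deposited counts, cells over 200000 reads and over 2000 genes, with under 0.15 of their reads mitochondrial, were kept. The study's methods print the last limit as a percentage, 0.15%, which 1 of the 233 cells over the other 2 limits met, so it was read as a fraction. The number of cells kept differs from the number in those methods. Passing cells had between 202157 and 43336922 reads. Counts were scaled to CPM by the total of each cell and averaged with equal weight per cell, and ratios used a pseudocount of 1 CPM, which understates the change of low genes. Thinning drew 200000 reads per cell without replacement. With 1 culture per label no test was made, and calls past 2-fold are a rule of size. The 10 genes, the pathway list, the marker lists and the alternatives were chosen with earlier results of these data known. Genes named for their likeness are the 5 with the highest Spearman correlation with Id1 or Id3 in D1 or D2, among genes with an established symbol and a read in at least 50% of cells. The other named genes are those of the lists, with Hprt and 4 Y-linked genes.

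Exon lengths and positions came from GENCODE M21 and upstream windows from RefSeq, both on GRCm38, and names were matched by symbol. RefSeq windows for Id1 and Smad7 were not used here. Analyses used pandas 2.3.3, scipy 1.17.1 and numpy 2.4.6 in Python 3.11.15. TMM and median-of-ratios factors were computed on summed counts in R 4.3.3, with edgeR 4.0.16 for TMM. The scripts were tested on simulated data.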

Additional observations from a re-analysis of the deposited data

Results flagged for a closer look

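A signal appeared in wells that the comparisons did not use. The 46 wells labelled D1 that failed the filter held 357724 reads together, and 30 of these, in 8 wells, were from Id1, a pooled level of 83.9 CPM. Id2 and Id3 had 22 reads each there, or 61.5 CPM. The 6 failing D0 wells had 4 Id1 reads in 114562 (34.9 CPM) and none of Id2 or Id3, and the 3 failing D2 wells had 2 Id1 reads in 1459044 (1.37 CPM). Failing wells labelled D1 thus held reads of the same 3 genes as the passing cells with that label. The cause was not tested.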

How the results depend on the processing

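Id1, Id2 and Id3 rose past 2-fold over D0 in both serum labels under every alternative run, leave-one-out over cells included. The count of rises over D0 among the 10 stayed at 3, except that in D2 TMM and median-of-ratios factors gave 4, with Smad5 at 1.26 and 1.22. Counts of falls and the D2 over D1 counts moved, and beyond what is said of Smad7 below the cause was not tested. Of the 10 genes, 2 fell in D1 over D0 with reads summed over cells, with median-of-ratios factors, with no level filter and in inner wells. In D2 over D0, 1 fell with no filter on cells beyond 1000 reads, a pseudocount of 10 CPM, TMM or median-of-ratios factors, or the median over cells, and 3 with no level filter, where Id4 was counted. The fall that was lost was that of Smad7. With no filter on cells and with the median over cells its ratio stayed past 2-fold (-3.44 with the median), and the call was lost to the level filter. In D2 over D1, none fell with no filter on cells (0), summed reads (0), a pseudocount of 10 CPM (0), TMM (0) or median-of-ratios factors (0), and 2 fell with the median over cells. There 1 rose with no filter on cells, with summed reads and with the median over cells, and 2 with TMM, median-of-ratios factors and inner wells. Smad7 in D2 over D1 stayed past 2-fold with no filter on cells, where its call was lost to the level filter. Its ratio changed sign with median-of-ratios factors, to a log2 ratio of 0.037. Leaving out 1 cell at a time gave 1 to 2 falls among the 10 in D2 over D1, the second being Smad5, and 1 to 2 rises in the pathway list. In that list, D1 over D0 gave 5 falls with a pseudocount of 10 CPM or TMM, 4 with the median over cells, and 9 rises and 15 falls with no level filter. In D2 over D0 it gave 6 falls with the median over cells, and 7 rises and 21 falls with no level filter. In D2 over D1 it gave 1 rise with a pseudocount of 10 CPM, with thinning or with the median over cells, 5 with no level filter or inner wells, and 1 fall with a pseudocount of 10 CPM. The median log2 ratio of all tested genes in D1 over D0 was -0.33 in the main analysis, -0.25 with reads summed over cells and -0.03 with TMM factors on those sums. In D2 over D0 it was -0.14, -0.13 and 0.15. Of 410 recomputed log2 ratios, 91 moved by less than counting error, 318 moved by more and 1 changed sign after a call, and of 150 recomputed correlations 143 differed by less than 0.1 from their main value.

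No paired analysis was possible because each label is 1 culture and no result comes from a test. With 1 culture per label, a difference between labels has no replicate check. In D2 each of the 10 genes other than Id1, Id2 and Id3 was read in under 20% of cells, also at equal depth, and a mean can rest on a few cells.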
